A study of Mus musculus with 6 samples.

Results

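The NMDA receptor subunit genes are the 7 genes of the *Grin* family, *Grin1*, *Grin2a*, *Grin2b*, *Grin2c*, *Grin2d*, *Grin3a* and *Grin3b*, taken by symbol from the 52390 genes listed for mouse brain RNA-seq. Of the 7, 6 passed the filter on low counts, which 21844 genes passed in all, and *Grin3b* did not. The study compared 3 AP1AR-DT OE mice with 3 control mice. All 6 were wild-type male C57BL/6 mice injected at the age of 8 weeks in the medial prefrontal cortex (mPFC) with a recombinant adeno-associated virus (AAV). In the AP1AR-DT OE mice the virus carried AP1AR-DT, a human long noncoding RNA that the labels call AC109347.1, driven by a neuronal promoter, that of human synapsin I. The control mice received the empty AAV vector. The labels name the tissue as brain, and the study's text as mPFC or cortical tissue. AP1AR-DT was not among the mouse genes counted, so the labels could not be checked by its level. Control libraries carry the numbers of their mice, 1 to 3, and the AP1AR-DT OE libraries, whose columns show the group but not the mouse, are called A, B and C.

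NMDA receptors are glutamate-gated channels that pass calcium and need glycine or D-serine as a co-agonist. Each receptor is built around the obligatory subunit GluN1, encoded by *Grin1*, with GluN2 subunits (*Grin2a* to *Grin2d*) that bind glutamate and set how long the channel stays open, or GluN3 subunits (*Grin3a*, *Grin3b*) that bind glycine. In the forebrain GluN2B dominates early in life and GluN2A is added as synapses mature.

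The subunits share the channel gate, and the genes encode it with different bases. The coding stretches of 3 members below are printed because they show, in the segment where the members are most alike, how *Grin1*, a GluN2 gene and a GluN3 gene differ in bases. They were read from the GENCODE vM21 transcripts on GRCm38, 5′ to 3′ on the coding strand, 81 bases each, and each lies within 1 exon. Capitals mark 21 bases that encode 7 residues found in all 7 translations, the only run of that length, in the M3 segment that forms the gate.

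*Grin1*, chr2:25297172-25297252, minus strand: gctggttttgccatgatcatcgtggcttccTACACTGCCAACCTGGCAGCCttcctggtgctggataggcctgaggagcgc
*Grin2c*, chr11:115253722-115253802, minus strand: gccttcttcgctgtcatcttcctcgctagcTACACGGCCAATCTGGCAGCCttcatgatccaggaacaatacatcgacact
*Grin3b*, chr10:79974609-79974689, plus strand: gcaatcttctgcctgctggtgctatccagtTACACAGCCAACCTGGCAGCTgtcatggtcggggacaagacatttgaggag

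Although the residues in capitals are identical, *Grin1* differed from *Grin2c* and from *Grin3b* at 2 of the 21 bases each, and *Grin2c* from *Grin3b* at 3. Over whole translations GluN2A and GluN2B were 56.6% identical, GluN2C and GluN2D 56.6% and the GluN3 pair 55.9%, while GluN1 shared 27.9 to 32.2% of aligned residues with the others. The genes also differ in base content. At the third position of codons, where most changes leave the residue as it is, G or C made up 58.9% in *Grin3a*, 64.6% in *Grin2a*, 67.5% in *Grin2b*, 71.3% in *Grin1*, 73.1% in *Grin3b*, 74.7% in *Grin2c* and 78.5% in *Grin2d*. Over the longest transcript, untranslated parts included, GC content ran from 44.8% in *Grin2a* and 45.7% in *Grin2b* through 49.2% in *Grin3a* to 59.4% in *Grin1*, 62.1% in *Grin2c*, 63.4% in *Grin3b* and 65.0% in *Grin2d*.

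The library totals ran from 42061721 to 54668294 counts. Several libraries stood apart in markers of brain regions, measured in normalized CPM, that is counts scaled to a common total between libraries. Control 3 held 3856 normalized CPM of choroid plexus markers in sum, against 44.8 to 61.0 in the other 5, 9831 of oligodendrocyte markers against 4542 to 5824, and 524 of thalamic markers against 108 to 170. Control 2 held 481 of hypothalamic peptide genes against 3.66 to 66.5. AP1AR-DT OE A held 1531 of striatal markers, followed by control 1 with 830, against 179 to 574 in the other 4. Of the excitatory cortical markers all 7 were detected in every library, but *Slc17a7*, the vesicular glutamate transporter that defines these neurons, read 28.2, 3.86 and 233 in controls 1 to 3 and 231, 463 and 87.2 in AP1AR-DT OE A to C. The interneuron list, most of it genes of GABA neurons in general, summed to 1011 to 2085. The markers of the cortex named in the study's text were thus low in some libraries, and their part in the results was not tested unless a value is given. In bulk tissue, fewer cells of a type and less RNA per cell cannot be told apart. Mitochondrial transcripts took 7.20 to 9.86% of counts in control mice and 5.75 to 6.80% in AP1AR-DT OE mice, without overlap. Summed endothelial markers read 49.4 to 58.2 normalized CPM in control mice and 60.5 to 93.5 in AP1AR-DT OE mice, also without overlap. Of the 3 endothelial markers only *Cldn5* was without overlap, with 17.2 to 24.1 in control mice and 27.0 to 42.1 in AP1AR-DT OE mice. *Pecam1* and *Flt1* overlapped.

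To see which subunits these libraries held, levels were compared per kilobase (kb) of merged exons. *Grin1* was the highest of the 7, with 31.9 ± 3.27 normalized CPM per kb (SD, n = 3) in control mice and 39.7 ± 4.08 in AP1AR-DT OE mice. In control mice *Grin2c* followed with 12.3 ± 1.62, *Grin2d* with 10.8 ± 1.61, *Grin2b* with 7.26 ± 0.616, *Grin3a* with 6.20 ± 0.492 and *Grin2a* with 2.48 ± 1.02, and *Grin3b* came last with 0.0721 ± 0.0487. The order was the same in AP1AR-DT OE mice. In each group only *Grin2c* and *Grin2d* overlapped among neighbours in this order, so these 2 were not separated beyond their spread. Which length is used decides the middle of the order. *Grin2b* has 24842 bases of merged exons but a coding length of 4446, and per kb of coding length it moved from the 4th place to the 2nd, with 40.6 ± 3.44 in control mice, behind *Grin1* with 107.6 ± 11.0. The first, 6th and 7th places of *Grin1*, *Grin2a* and *Grin3b* held under merged exons, longest transcript and coding length.

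Of the 6 subunit genes tested, 0 met the DEG rule of the study (*P* under 0.05 and |Log2FC| above 0.32) in edgeR's quasi-likelihood test, against 12.2% of all genes tested. *Grin1* alone had *P* under 0.05, against 15.1% of all genes and 6.74% with *P* under 0.05 and higher in AP1AR-DT OE mice. None of the 6 passed an adjusted *P* of 0.05, which 0.0275% of all genes did, and groups did not overlap for 1 of 6, against 22.4% of all genes. DESeq2 and limma-voom each gave the same 3 counts, 0 by the DEG rule, 1 with *P* under 0.05 and 0 adjusted. The median Log2FC of the 6 was 0.01, beside -0.01 over all genes.

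**Figure D1:**
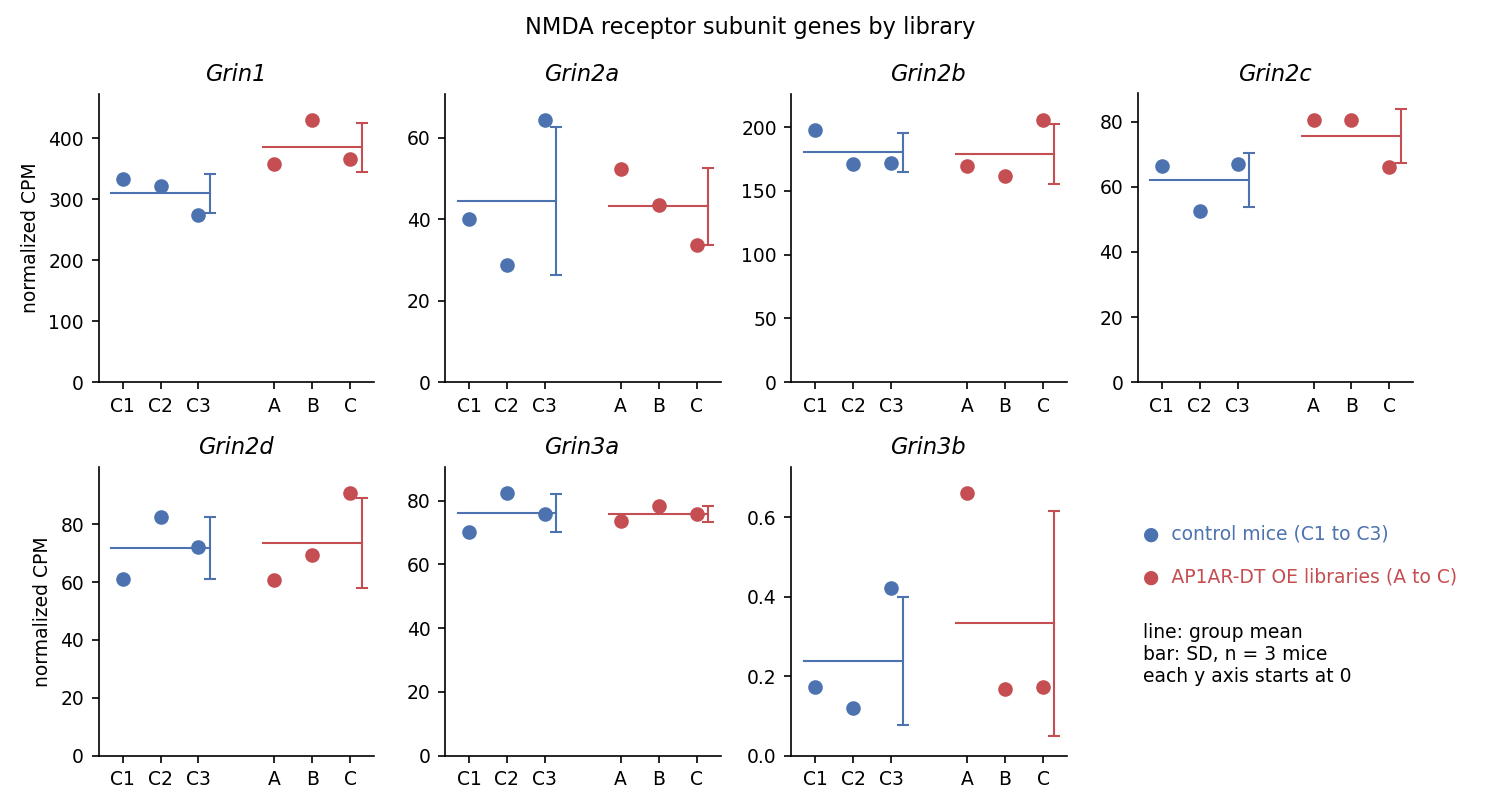
Normalized CPM (y axis, from 0 in each panel) of each subunit gene in the 3 control mice and the 3 AP1AR-DT OE libraries, with the group mean as a line and the SD as a bar. The groups are separate for *Grin1* alone, *Grin2a* is the widest of the genes tested and *Grin3a* the narrowest.

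*Grin1*, the obligatory subunit (ENSMUSG00000026959, chr2:25291181-25319187, minus strand), read 333, 322 and 274 normalized CPM in controls 1 to 3 and 358, 430 and 366 in AP1AR-DT OE A to C. All 3 AP1AR-DT OE libraries lay above all 3 control libraries, by a narrow gap between control 1 and A. The means were 310 ± 31.7 and 385 ± 39.5 (SD, n = 3), a ratio of 1.24. The edgeR fit gave a Log2FC of 0.31 ± 0.117 (SE), an unadjusted *P* of 0.0317 and an adjusted *P* = 0.307, so the gene missed the adjusted threshold and lay just under the fold required of a DEG. An exact two-sided permutation test of 3 against 3 gave *P* = 0.1, the smallest it can give. The Log2FC was above 0 in all 16 fits run, had *P* under 0.05 in 12 of them and passed the DEG rule in 6, with adjusted *P* from 0.163 to 0.831. It was 0.24 without control 3 and 0.23 without AP1AR-DT OE B, with an unadjusted *P* of 0.0729 and 0.107 in edgeR. The mitochondrial share and the summed endothelial and choroid plexus markers separated the groups as well, of the endothelial markers *Cldn5* alone. Choroid plexus markers summed to 61.0, 55.3 and 3856 normalized CPM in controls 1 to 3 and to 44.8 to 53.6 in AP1AR-DT OE mice. Outside control 3 that gap was narrow. Of 4 pan-neuronal markers, *Eno2* had a Log2FC of 0.38 without overlap and *Rbfox3* of 0.40, both with an unadjusted *P* under 0.05 in edgeR, while *Syt1* had 0.13 and *Snap25* -0.17. The list summed to 2253 to 2732 in control mice and to 2680 to 3000 in AP1AR-DT OE mice. The part of these in the *Grin1* value was not tested.

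Part of *Grin1* lies opposite another gene. *Grin1os*, a noncoding gene on the opposite strand (ENSMUSG00000085830, chr2:25291220-25298925), shares 1307 exonic bases with *Grin1*, which are 45.2% of its own exons and 13.5% of those of *Grin1*, and 1184 of them are coding in *Grin1*. The library kit named in the labels does not mark strand, so reads from the 2 genes cannot be told apart in that stretch. *Grin1os* read 56.3, 27.7 and 20.2 normalized CPM in controls 1 to 3 and 71.2, 83.1 and 71.6 in AP1AR-DT OE A to C. The groups did not overlap, and the Log2FC was 1.12 ± 0.351 (SE) with an unadjusted *P* of 0.0152 and an adjusted *P* = 0.295 in edgeR. It met the DEG rule in 16 of 16 fits, with a Log2FC from 0.86 to 1.65. Its adjusted *P* was 0.028 in DESeq2, and 0.105 to 0.661 in the edgeR and limma-voom fits. Relative to *Grin1*, it amounted to 16.9%, 8.61% and 7.38% in controls 1 to 3 and to 19.9%, 19.3% and 19.6% in AP1AR-DT OE A to C. The part of *Grin1os* reads in the *Grin1* value was not tested, and the sum of the 2 genes was 344 ± 48.2 normalized CPM in control mice and 460 ± 46.3 in AP1AR-DT OE mice.

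*Grin2c*, whose subunit is known from cerebellar granule cells, thalamus and astrocytes (chr11:115249169-115267243, minus strand), read 66.4, 52.7 and 67.1 normalized CPM in controls 1 to 3. The AP1AR-DT OE libraries read 80.6, 80.4 and 66.1. A and B were above all control mice, while C was below controls 1 and 3. The fitted Log2FC of 0.29 ± 0.134 (SE) was close to that of *Grin1* but did not reach the threshold, with an unadjusted *P* of 0.0695 and an adjusted *P* = 0.357 in edgeR. It was -0.0017 with correction for GC content, 0.39 without C, where it met the DEG rule with an unadjusted *P* of 0.0291, and 0.19 without control 2. The list of cerebellar granule cell markers summed to 19.3, 61.2 and 83.2 normalized CPM in controls 1 to 3 and to 15.6, 17.7 and 23.6 in A to C. Most of each sum was *Cbln1*, with 10.7, 59.7 and 71.2 in controls 1 to 3 and 11.8, 12.1 and 21.1 in A to C. *Gabra6* read 0 to 1.01 and *Cbln3* 0.631 to 6.07, both highest in control 1, and *Neurod1* 0.783 to 11.2, highest in control 3. Thalamic markers summed to 150, 128 and 524 in controls 1 to 3 and to 108, 155 and 170 in A to C. Astrocyte markers summed to 3790, 2923 and 3688 in controls 1 to 3 and to 3286, 3129 and 3027 in A to C. The part of these markers in the *Grin2c* value was not tested.

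The fold changes over all genes moved with GC content. The median Log2FC was -0.30 in the tenth of genes with the lowest GC content and 0.22 in the highest, and Spearman's rho across the genes, which are not independent replicates, was 0.400. *Grin1*, *Grin2c* and *Grin2d* are in that highest decile, *Grin3a* in the 5th, with a median of -0.02, and *Grin2a* and *Grin2b* in the 3rd, with a median of -0.13. With a smooth curve on GC content fitted in each library, the Log2FC of *Grin1* was 0.08 (adjusted *P* = 0.831 in edgeR, and 0.12 with GC content averaged over transcripts), that of *Grin2d* -0.30 (adjusted *P* = 0.679) and that of *Grin2b* 0.10 (adjusted *P* = 0.781). *Grin1os* kept a Log2FC of 0.95 with an unadjusted *P* of 0.0296 and an adjusted *P* = 0.542 in that fit.

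**Figure D2:**
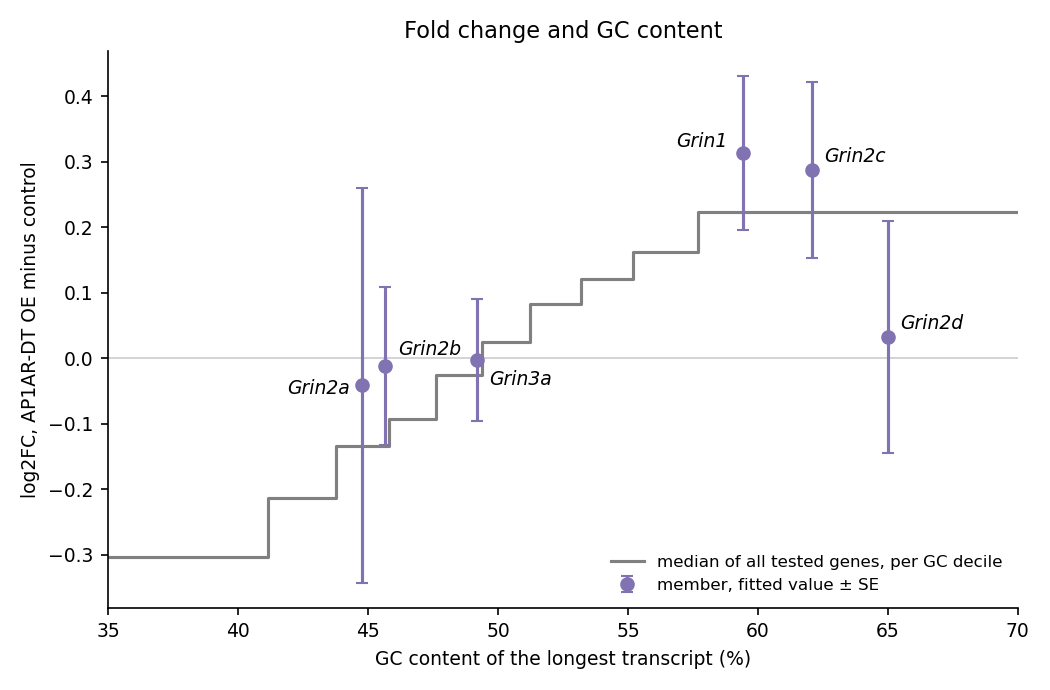
Log2FC with its SE (y axis) against GC content of the longest transcript in percent (x axis, cut to 35 to 70) for the 6 subunit genes tested, with a grey line for the median Log2FC of all tested genes in each GC decile. *Grin1* and *Grin2c* lie at 0.31 and 0.29, above the median of 0.22 of their decile but within 1 SE of it, and *Grin2d* lies below at 0.03.

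*Grin2d*, whose subunit is known from interneurons and the diencephalon (chr7:45831883-45878378, minus strand), read 61.0, 82.4 and 72.3 normalized CPM in controls 1 to 3 and 60.6, 69.3 and 90.7 in AP1AR-DT OE A to C. The lowest and the highest library were both AP1AR-DT OE, and the groups overlapped throughout. The Log2FC was 0.03 ± 0.177 (SE), with an adjusted *P* = 0.945 in edgeR. The interneuron list summed to 2035, 1699 and 1011 in controls 1 to 3 and to 1823, 1952 and 2085 in A to C. Most of each sum was *Slc32a1*, *Gad1* and *Gad2*, which mark GABA neurons in general, so the sum does not measure interneurons alone. *Gad1* and *Gad2*, the enzymes that make GABA, were detected in all 6. Of the markers of interneuron classes, *Sst* read 107 to 286, *Pvalb* 4.16 to 18.4 and *Vip* 0.705 to 13.4. The part of these markers in the *Grin2d* value was not tested. The noncoding gene *Gm45441* on the opposite strand shares 643 coding bases with *Grin2d* and read 0.140 to 7.49 normalized CPM.

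*Grin2b*, the GluN2 subunit of the young forebrain (chr6:135713233-136173511, minus strand), held similar levels in all libraries. It read 198, 171 and 172 normalized CPM in controls 1 to 3 and 170, 161 and 206 in AP1AR-DT OE A to C, so the highest and the lowest were again both AP1AR-DT OE. The means were 180 ± 15.3 and 179 ± 23.6 (SD, n = 3), with a Log2FC of -0.01 ± 0.120 (SE) and an adjusted *P* = 0.972 in edgeR.

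*Grin2a*, the GluN2 subunit of mature synapses (chr16:9567898-9995560, minus strand), varied most between mice among the genes tested. Controls 1 to 3 read 39.9, 28.8 and 64.4 normalized CPM, a coefficient of variation of 41.0%, and AP1AR-DT OE A to C read 52.4, 43.5 and 33.6. The highest and the lowest of the 6 libraries were both control mice, a factor of 2.23 apart. The Log2FC was -0.04 ± 0.301 (SE) with an adjusted *P* = 0.960 in edgeR, and without control 3 it was 0.34 with an adjusted *P* = 0.539. The excitatory cortical list summed to 102, 87.7 and 484 normalized CPM in controls 1 to 3 and to 375, 635 and 168 in A to C. Control 2 was the lowest in both measures and control 3, the highest in *Grin2a*, was above all but B in the list, but B was below A in *Grin2a*. The part of these markers in the spread of *Grin2a* was not tested. The longest *Grin2a* transcript also shares 13.3% of its 100-base stretches with *Gm7328*, a processed pseudogene that read 1.1 to 2.6 normalized CPM.

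**Figure D3:**
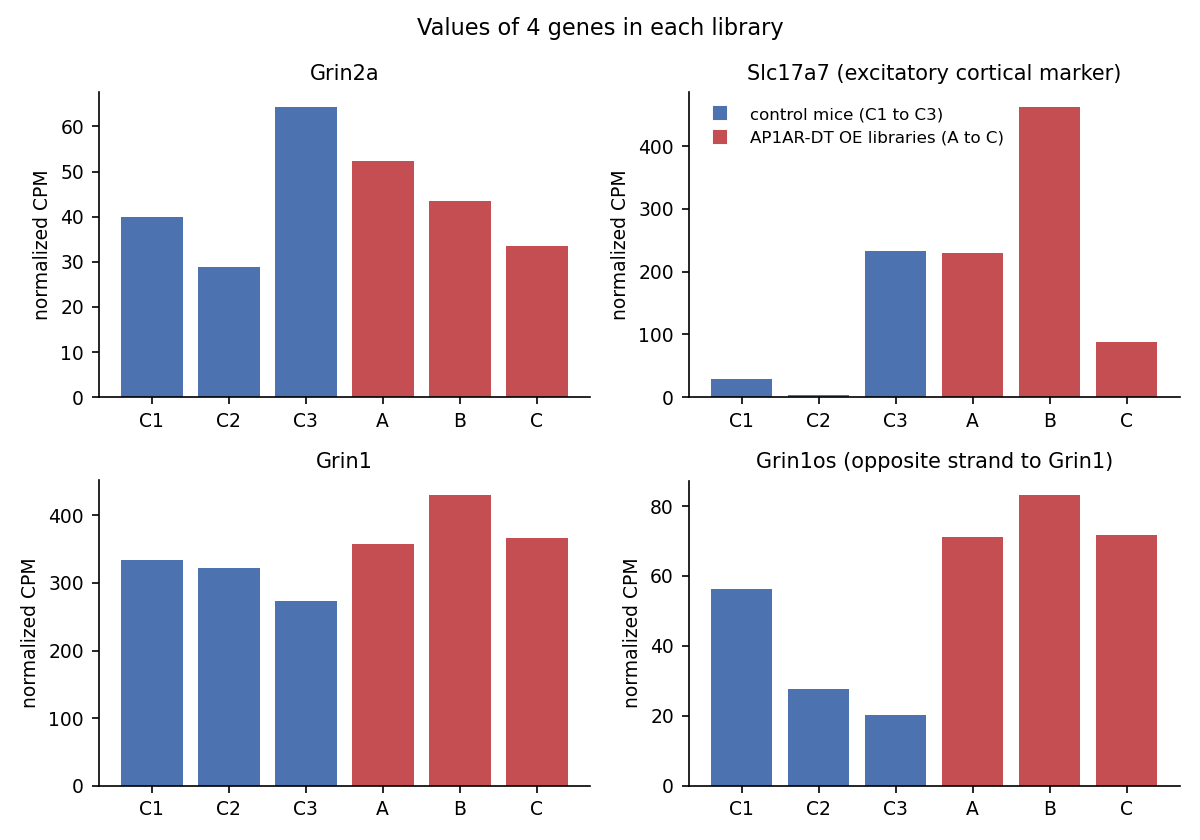
Normalized CPM (y axes, from 0) of *Grin2a* and the excitatory cortical marker *Slc17a7* (top) and of *Grin1* and the opposite-strand gene *Grin1os* (bottom) in each library, with 1 bar a library. *Slc17a7* runs from 3.86 to 463, and *Grin1os* from 20.2 to 56.3 in control mice and from 71.2 to 83.1 in AP1AR-DT OE mice.

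*Grin3a*, which encodes a glycine-binding subunit that lowers calcium entry (chr4:49661611-49845744, minus strand), had the narrowest range. It read 70.3, 82.4 and 75.7 normalized CPM in controls 1 to 3 and 73.5, 78.5 and 75.9 in AP1AR-DT OE A to C, with all 3 of the latter inside the control range. The highest library was 1.17 times the lowest, and the Log2FC was -0.0030 ± 0.0931 (SE) with an adjusted *P* = 0.990 in edgeR. *Grin3b*, the other glycine-binding subunit, known best from motor neurons (chr10:79970715-79977190, plus strand), had 7, 6 and 21 counts in controls 1 to 3 and 35, 9 and 9 in A to C. It had too few counts to be tested. Its exons also share 1059 bases, 32.1% of their length, with *Tmem259* on the opposite strand, which read 67.6 to 88.8 normalized CPM in control mice and 100.1 to 112.7 in AP1AR-DT OE mice, so the few counts of *Grin3b* cannot be assigned to it with certainty. *Grin2c* and *Grin3a* shared no 100-base stretch with another gene, and *Grin2b* 0.184% of its stretches.

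**Figure D4:**
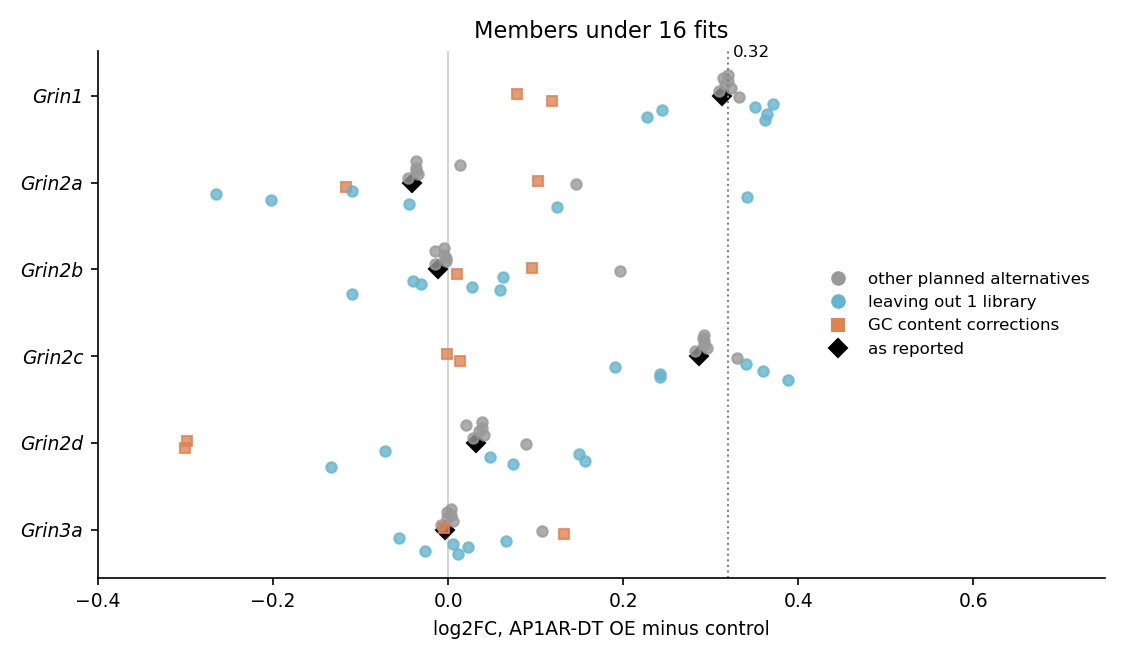
Log2FC (x axis, AP1AR-DT OE minus control) of the 6 subunit genes tested in 16 fits each, with the reported fit as a diamond, fits with GC correction as squares and fits that leave out 1 library in blue. *Grin1* is above 0 in all fits, from 0.08 to 0.37, and the dotted line marks the fold of 0.32 required of a DEG.

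The make-up of the receptor was then compared as ratios within a library, which do not depend on its total. Of the counts of the 4 GluN2 genes, *Grin2b* took 50.4 ± 4.24% in control mice and 48.1 ± 3.41% in AP1AR-DT OE mice (SD, n = 3), *Grin2d* 20.2 ± 4.04% and 19.7 ± 3.11%, *Grin2c* 17.2 ± 1.33% and 20.5 ± 3.32%, and *Grin2a* 12.2 ± 4.41% and 11.7 ± 3.02%. These shares are not per length, and per kb of merged exons *Grin2c* was the largest, with 37.4 ± 3.67% and 42.2 ± 5.77%, while per kb of coding length *Grin2b* was, with 47.5 ± 4.06% and 45.1 ± 3.37%. For none of the 4 were the groups separate on any of these scales. The ratio of *Grin2a* to *Grin2b*, the measure of the switch with age, was 0.202, 0.169 and 0.374 in controls 1 to 3 and 0.309, 0.269 and 0.163 in AP1AR-DT OE A to C. Control 3 was the highest and C the lowest. The log2 ratios differed by 0.03 (AP1AR-DT OE minus control), with *P* = 1 in an exact two-sided permutation test, and by 0.37 without control 3. Over 7 ratios tested, that of *Grin3a* to *Grin1* was the only one without overlap, 0.211, 0.256 and 0.277 in controls 1 to 3 and 0.205, 0.183 and 0.207 in A to C. Its log2 difference of -0.31 had *P* = 0.1 in the exact permutation test, the smallest it can give, and 0.467 after Benjamini-Hochberg adjustment over the 7. The median Log2FC of all genes was 0.22 in the GC decile of *Grin1* and -0.02 in that of *Grin3a*. This ratio was not corrected for GC content, and the part of GC content in it was not tested.

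Across the 6 libraries the subunit genes did not move as 1 group. Pearson's r of log2 normalized CPM between pairs of members, a description over libraries that share their composition, ran from -0.57 for *Grin2c* and *Grin2d* to 0.64 for *Grin2d* and *Grin3a*, and was 0.54 for *Grin1* and *Grin2c*. Among 9812 protein-coding genes with a mean of at least 10 normalized CPM, those most like *Grin1* were *Rrp7a* (r = 0.997) and *Rabggta* (r = 0.992), and those most like *Grin2a* were *Camk1d* (r = 0.987) and *Fbxw7* (r = 0.984). For *Grin2c* they were *Sfxn3* (r = 0.999) and *Ppp1r9b* (r = 0.997), for *Grin2d* *Nxpe3* (r = 0.990) and *Snrk* (r = 0.978), for *Grin2b* *Sav1* (r = 0.977) and *Paxip1* (r = 0.973), and for *Grin3a* *Adam19* (r = 0.965) and *Sdc3* (r = 0.962). With 6 libraries and so many genes, values this high were picked as the highest.

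Genes that act with the receptor were taken from a list of 34, all of which passed the filter on low counts. By the DEG rule 3 rose and 2 fell in AP1AR-DT OE mice, which is 14.7% of the 34, beside 12.2% of all genes. DESeq2 called 5 and limma-voom 6, and 0 passed an adjusted *P* of 0.05 in any of the 3 tools. The median Log2FC of the 34 was 0.12, beside -0.01 over all genes, and 0.06 with correction for GC content. Of 14 scaffold and trafficking genes 3 rose and 1 fell, of 12 kinase, phosphatase and signalling genes 0 passed, with 0 also at an unadjusted *P* under 0.05, and of 8 genes of co-agonist supply 1 fell.

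Those that rose include *Dlg4* and *Gipc1*. *Dlg4*, which encodes PSD-95, the scaffold that binds GluN2 tails, read 493, 404 and 409 normalized CPM in controls 1 to 3 and 589, 585 and 474 in AP1AR-DT OE A to C. A and B were above all control mice and C was below control 1, with a Log2FC of 0.34 ± 0.129 (SE) and an unadjusted *P* of 0.0340 (adjusted *P* = 0.309) in edgeR. *Gipc1*, a trafficking adaptor, rose by a Log2FC of 0.42 ± 0.126 (SE), from 32.9 ± 3.78 to 44.2 ± 4.26 normalized CPM (SD, n = 3), with an unadjusted *P* of 0.0116 (adjusted *P* = 0.295) in edgeR and no overlap. With correction for GC content *Dlg4* had 0.42 and an unadjusted *P* of 0.0175 in edgeR, while *Gipc1* with 0.17 did not pass. With GC content averaged over the transcripts of a gene *Dlg4* had 0.18 and an unadjusted *P* of 0.154 and did not pass either, nor did *Gipc1* with 0.15.

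The 2 that fell were *Lin7c* and *Phgdh*. *Lin7c*, a small scaffold protein that links GluN2B to the motor KIF17, read 85.0, 88.7 and 102.5 normalized CPM in controls 1 to 3 and 69.0, 59.6 and 76.4 in AP1AR-DT OE A to C, without overlap, with a Log2FC of -0.43 ± 0.125 (SE) and an unadjusted *P* of 0.0106 (adjusted *P* = 0.295) in edgeR. It was -0.10 with correction for GC content, and -0.17 with GC content averaged over transcripts, and passed with neither. *Phgdh*, the first enzyme of L-serine synthesis, from which D-serine is made, read 13.0, 11.0 and 11.9 in controls 1 to 3 and 9.48, 9.48 and 9.36 in A to C. The groups did not overlap, and the Log2FC was -0.34 ± 0.127 (SE) with an unadjusted *P* of 0.0304 (adjusted *P* = 0.304) in edgeR, and -0.53 with an unadjusted *P* of 0.00406 with correction for GC content. When 1 library was left out in edgeR, *Gipc1* and *Lin7c* met the DEG rule in 6 of 6 fits. *Dlg4* met it in 2 of 6, not without control 2, control 3, A or B, and *Phgdh* in 1 of 6, that without control 2, with Log2FC from 0.29 to 0.45 and from -0.39 to -0.28.

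The most abundant of the others did not pass. *Camk2a*, the kinase subunit that docks on GluN2B after calcium entry, read 1863, 1075 and 1587 normalized CPM in controls 1 to 3 and 2013, 2227 and 1529 in AP1AR-DT OE A to C, and the groups overlapped (Log2FC 0.35 ± 0.228, adjusted *P* = 0.481 in edgeR). *Camk2b* had a Log2FC of 0.29 with an adjusted *P* = 0.383 in edgeR, *Dlg2*, a PSD-95 relative, -0.04, *Psat1*, of serine synthesis, -0.02, and *Slc1a4*, a neutral amino acid transporter that carries serine, 0.10.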

How the data were processed

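RNA from the brain tissue of 3 control and 3 AP1AR-DT OE mice was sequenced as paired-end reads with a TruSeq kit that does not mark strand. Counts per gene were used as the authors deposited them, without normalization. The study's methods name FastQC, Bowtie2, StringTie with GENCODE on GRCm38, and DESeq2. The submitters' processing notes instead name TopHat2 2.0.4, SAMtools, HTSeq, Cuffdiff, edgeR 2.6.12 and mm9. The deposited counts carry Bowtie2, StringTie and DESeq2 in their name, as in the study's methods. Because the notes conflict with this, which steps made the counts was not settled. The DESeq2 columns of the same table (mean, fold change, SE, statistic and P-values) were not used. The AP1AR-DT OE columns could not be tied to single mice.

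Counts were fitted in R 4.3.3 with edgeR 4.0.16 (filterByExpr, TMM, quasi-likelihood F-test, two-sided, Benjamini-Hochberg over 21844 genes). Alternatives were DESeq2 1.42.0, limma 3.58.1 (voom), 2 other normalizations, no filter, at least 10 counts in every library, GC and length curves (splines with 5 degrees of freedom), and leaving out each library. A curve on the mean GC content over transcripts was added after seeing the data. The scripts were tested on simulated data. Totals of 42061721 to 54668294 counts leave the spread between libraries as the main error for all members but *Grin3b*. Each mouse gave a single library, so mouse, dissection and library preparation cannot be told apart in that spread. Of the 52390 identifiers, 52133 were found in GENCODE vM21 (GRCm38), which gave coordinates, lengths and sequences. Stretches of 100 bases of each longest transcript were searched in all other transcripts, on both strands. Exact permutation tests used scipy 1.17.1.

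Named were all members, the listed partner genes that met the DEG rule, otherwise the 2 most abundant of each list, and the 2 genes most like each member. The members and lists were chosen with earlier results of these data known. *Grin1os*, *Gm45441*, *Gm7328* and *Tmem259* were named for their shared sequence. Some genes and sequences are not reported here.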

Additional observations from a re-analysis of the deposited data

How the results depend on the processing

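No paired analysis was possible because the labels give no pairing between control and AP1AR-DT OE mice. The DEG count over all genes, 2675, was 1566 and 1568 with the 2 GC corrections and 1430 to 3508 when 1 library was left out. Subunit genes called, 0 in the reported fit, were 1 without a filter and 1 with the length curve, *Grin1* in each case, and 0 to 2 when 1 library was left out (2 without AP1AR-DT OE C). Partner genes called, 5 in the reported fit, were 2 and 1 with the 2 GC corrections and 2 to 8 when 1 library was left out, the lowest without A or B and the highest without C. Fold changes near 0 changed sign, as did that of *Grin2c*, none with *P* under 0.05 in the fits where the sign changed. *Grin2a* was 0.013 with voom, 0.10 with GC content, 0.15 with length and up to 0.34 when 1 library was left out, from -0.27. *Grin2b* was 0.10 with GC content, 0.011 with mean GC content, 0.20 with length and -0.11 to 0.062 when 1 was left out. *Grin2c*, not near 0 in the reported fit with 0.29, was -0.0017 with GC content. *Grin2d* was -0.30 with GC content, -0.30 with mean GC content and -0.13 to 0.16 when 1 was left out. *Grin3a* was 0.0034 with DESeq2, 0.0035 with its size factors, 0.0060 without a filter, 0.11 with length, 0.13 with mean GC content and -0.056 to 0.066 when 1 was left out. The log2 ratio of *Grin2a* to *Grin2b* differed by -0.0070 with length and by -0.20 to 0.37 when 1 was left out. The causes were not tested. With 3 mice a group, permutation tests cannot go below 0.1.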
